A study of Mus musculus with 192 samples.

Results

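The miRNAs of cerebral cortex from sham mice were compared between 4 collection times, in 13 libraries. The sham libraries were those labelled as control in the cortex table, which held 15 of them among 63 cortical libraries and 190 libraries in all. FP85 (labelled 6h) and FP96 (labelled 0h) were left out, because over 277 miRNAs the log2 profile of each correlated with the median lung profile at 0.9905 and with the median cortex profile at 0.6443 and 0.6392. In the 13 cortices in use the correlation with the median cortex profile was 0.9787 to 0.9964, and the 11 neuronal miRNAs of a fixed list, miR-9, miR-124 and miR-128 among them, made up 17.8% to 21.7% of the signal. The label of cortex therefore matched its defining markers in the 13 libraries.

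The study gave fentanyl to adult male SKH-1 Elite mice under the skin and sequenced small RNA from cortex, heart and lungs. Sham mice received the vehicle alone, 200 µL of Ringer's solution, so they were injected and not untouched. Fentanyl mice received 62 mg/kg (HNLD, the highest dose that was not lethal), 110 mg/kg (LD10) or 135 mg/kg (LD50), with 48 cortical libraries in all. Organs were taken at 0h, which was 40 min after the injection, and at 6h, 24h or 7d, each from different mice. In the sham cortex, the 0h mice were FP87, FP88 and FP95, the 6h mice FP77, FP78 and FP86, the 24h mice FP92, FP93 and FP94, and the 7d mice FP81, FP82, FP83 and FP84, and values below follow this order. The mouse numbers ran together with the time, since the 7d mice had consecutive numbers and so had the 24h mice. Collection time and anything shared by mice of neighbouring numbers cannot be told apart. The libraries of one time were separate mice, and their p-values measure the spread between these mice.

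miRNAs are short RNAs that lower the output of messenger RNAs, and the bases called the seed, near the 5′ end, do most of the pairing with the target. The 183-96-182 cluster is made from a shared precursor and is best known from sensory cells, such as photoreceptors and hair cells of the inner ear. The 200 family marks epithelial cells, where it represses the transcription factors Zeb1 and Zeb2, and it is also known from olfactory tissue.

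The mature sequences of the cluster and family are shown because these were the miRNAs with the largest difference between collection times and because they varied together between mice. Capitals mark the seed, bases 2 to 8, 5′ to 3′, and the sequences are those of RefSeq for GRCm38.p6.
miR-182-5p: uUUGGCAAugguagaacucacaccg
miR-183-5p: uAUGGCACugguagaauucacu
miR-96-5p: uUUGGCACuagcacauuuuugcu
miR-200b-3p: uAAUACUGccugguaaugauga
miR-200c-3p: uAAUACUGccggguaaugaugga
miR-429-3p: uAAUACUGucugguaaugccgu
miR-200a-3p: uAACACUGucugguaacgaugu
miR-141-3p: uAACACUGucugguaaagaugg
miR-200a-5p: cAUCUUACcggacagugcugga
miR-200b-3p, miR-200c-3p and miR-429-3p shared the seed AAUACUG, and miR-200a-3p and miR-141-3p shared AACACUG. The members of the 183-96-182 cluster had a seed each. In the mm9 assembly used by the study, the cluster lies on the minus strand of chromosome 6, with Mir182 at chr6:30115918-30115992, Mir96 at chr6:30119446-30119551 and Mir183 at chr6:30119668-30119737, and no annotated gene overlaps them. The 200 family has a locus on chromosome 4, where Mir200b (chr4:155429790-155429859), Mir200a (chr4:155429005-155429094) and Mir429 (chr4:155428014-155428096) lie on the minus strand in introns of Ttll10, and Mir429 overlaps an exon of the noncoding transcript Gm13648 too. Its other locus is on chromosome 6, where Mir200c (chr6:124668340-124668408) and Mir141 (chr6:124667932-124668003) lie on the minus strand in an intron of the noncoding transcript Gm15884.

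The 13 libraries held 2416806 to 6921772 reads, and 922 to 1052 miRNAs were detected in each. The 6h libraries were the shallowest (2416806 to 3670209 reads) and the 0h libraries the deepest (4938091 to 6921772), while the 7d libraries (3634104 to 5623722) lay within the range of the earlier times. Levels are given in normalised reads, that is reads scaled for the size of the library, and 3 reads were worth at most 1.15 in these libraries. The tests covered the 444 miRNAs that reached a level of 10 in 4 or more of the 13 libraries, which together carried 99.9% or more of every library. Libraries of one time differed by more than sampling noise (chi-square of 78.7 to 536.7 per degree of freedom), so none was a copy of another. The most abundant miRNA was miR-181a-5p, with 12.0% ± 0.969 (SD, n = 13) of the signal, followed by miR-22-3p (5.65% ± 0.497), miR-9-5p (5.53% ± 0.533) and miR-26a-5p (5.32% ± 1.15), and the 10 most abundant together made up 50.5% ± 1.14.

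The first question was how far sham cortex at 7d differed from sham cortex at 0h, 6h and 24h. The 9 measured members of the 183-96-182 cluster and the 200 family were 4.56-fold to 8.67-fold higher at 7d than the mean of the earlier times on the log2(value + 1) scale, of which miR-96-5p, the highest, passed the filter on low values only with the help of the 7d mice, while the median miRNA did not shift (log2 difference 0.00). In limma with Benjamini-Hochberg adjustment 0 of the 444 miRNAs (0%) passed an adjusted p of 0.05, and 15 had an unadjusted p under 0.05. edgeR called 0 and DESeq2 called 6, namely miR-182-5p, miR-200a-3p, miR-200a-5p, miR-200c-3p, miR-429-3p and miR-3470b. Like miR-96-5p, miR-3470b passed the filter only with the help of the 7d mice. The difference was therefore large in the level of the 9 members and in limma stayed short of the threshold against the spread between mice. The calls rested on which earlier mice were included: without FP88 of 0h limma called 9 miRNAs, all of them the 9 members, and without FP77 of 6h it called 7, namely the members other than miR-183-5p and miR-200a-5p.

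miR-182-5p was the most abundant member of its cluster. Its level was 135.2, 2542 and 1612 at 0h, 3722, 697.7 and 608.9 at 6h, 3024, 1244 and 501.3 at 24h, and 9897, 4332, 12761 and 12926 at 7d. All 4 mice of 7d lay above all 9 earlier mice, and within each earlier time 1 mouse was far above another. The mean was 9979 ± 4013 (SD, n = 4) at 7d against 1430 ± 1214, 1676 ± 1773 and 1590 ± 1297 (n = 3 each) at 0h, 6h and 24h. The log2 difference was 3.11 ± 0.75 (SE), with an adjusted p of 0.0752.

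miR-96-5p, the least abundant member of the cluster, measured 1.14, 15.8 and 6.38 at 0h, 43.7, 1.69 and 1.47 at 6h, 25.1, 8.56 and 9.74 at 24h, and 50.6, 64.3, 95.3 and 86.4 at 7d. Its groups did not overlap either, although FP77 of 6h reached 43.7 against 50.6 in FP81 of 7d. Its log2 difference was 3.12 ± 0.71 (adjusted p 0.0712). It reached a level of 10 in 3 earlier mice, short of the 4 libraries of the filter, so it was tested only because of its level at 7d and its difference is given as a description. For miR-183-5p the values were 17.4, 385.8 and 158.7 at 0h, 291.1, 78.9 and 79.6 at 6h, 564.5, 189 and 46.4 at 24h, and 1626, 430, 748.3 and 2114 at 7d. Here the groups overlapped, as FP92 of 24h lay above FP82 of 7d, and the log2 difference was 2.98 ± 0.80 (adjusted p 0.118). Of the 6 mature miRNAs of the cluster 3 passed the filter on low values. The passenger strand miR-182-3p, which did not pass, was highest in FP84 of 7d at 3.16. Summed over the 6, the cluster measured 153.8 to 4063 at the earlier times and 4829 to 15156 at 7d.

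In the 200 family, miR-200a-3p measured 82.8, 558.1 and 312.7 at 0h, 711.7, 111.3 and 104.5 at 6h, 635.3, 296 and 172.6 at 24h, and 1829, 914.8, 1429 and 2640 at 7d. The lowest mouse of 7d, FP82, stood above the highest earlier mouse, FP77. The log2 difference was 2.66 ± 0.59 (adjusted p 0.0712). miR-200b-3p, made from the same locus, measured 70.4, 335.2 and 223.6 at 0h, 439.4, 67 and 70.8 at 6h, 354.4, 187.2 and 124.3 at 24h, and 842.2, 528.1, 649.2 and 1137 at 7d. It had the smallest log2 difference of the 9, 2.19 ± 0.52 (adjusted p 0.0752), and its groups did not overlap. The most abundant member of the family was miR-429-3p, at 146.8, 860.3 and 460 at 0h, 846.1, 144.2 and 105.4 at 6h, 883.6, 395.6 and 259.8 at 24h, and 2252, 1294, 2220 and 3094 at 7d. All 4 mice of 7d were above the earlier 9 (log2 difference 2.61 ± 0.56, adjusted p 0.0712).

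The locus on chromosome 6 behaved alike. miR-141-3p measured 25.7, 371.4 and 138.4 at 0h, 344, 46.5 and 27 at 6h, 260.6, 99.9 and 47.6 at 24h, and 824.4, 411.2, 991.1 and 1149 at 7d (log2 difference 3.01 ± 0.74, adjusted p 0.0752). miR-200c-3p was lower in level, at 3.1, 34.3 and 17.3 at 0h, 18, 4.23 and 2.06 at 6h, 28.8, 13.1 and 6.96 at 24h, and 83.6, 43.6, 62.8 and 105.4 at 7d (log2 difference 2.67 ± 0.58, adjusted p 0.0712). In both miRNAs every mouse of 7d exceeded every earlier mouse. The passenger strand miR-200a-5p measured 2.44, 16.3 and 11.9 at 0h, 3.83, 3.94 and 7.63 at 6h, 22, 12 and 4.18 at 24h, and 78.8, 15.6, 30.5 and 86.9 at 7d. Its groups overlapped through FP82 of 7d, which lay below FP92 of 24h and FP88 of 0h, and its log2 difference was 2.36 ± 0.54 (adjusted p 0.0712). Of the 10 mature miRNAs of the family 6 passed the filter, 1 was listed at 0 in all 13 libraries, and the 10 summed to 318.5 to 2365 at the earlier times and 3220 to 8268 at 7d.

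**Figure D1:**
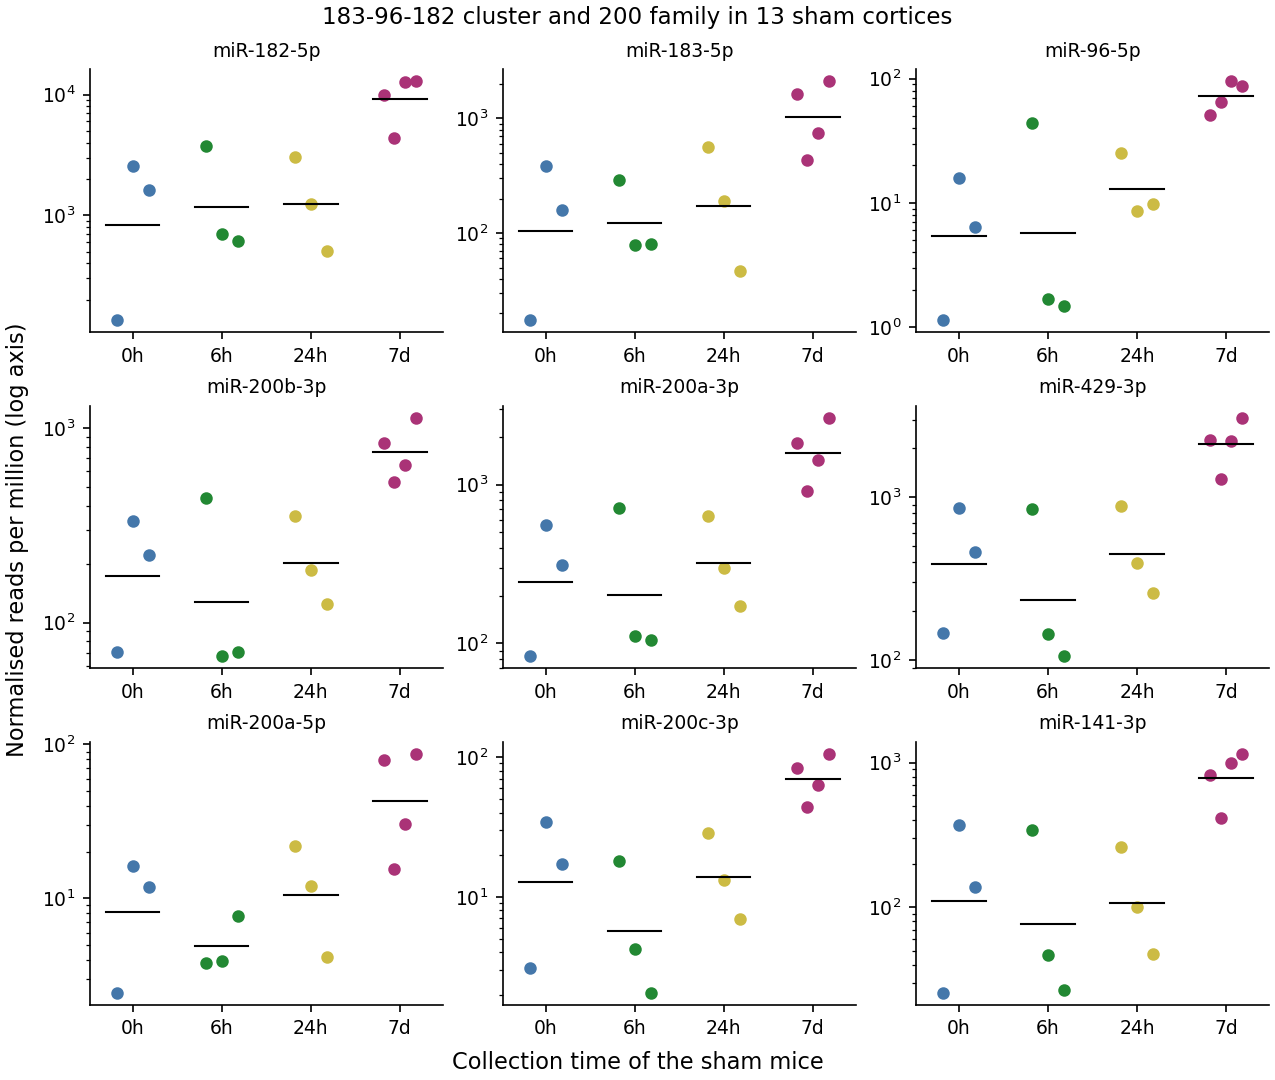
Levels of the 9 tested members of the 183-96-182 cluster and the 200 family in 13 sham cortices, in normalised reads on a log axis, by collection time; each point is 1 mouse and the bar is the mean of log2(value + 1), drawn on the level axis. In 7 of the 9 panels the 4 points at 7d lie above all earlier points, and in miR-183-5p and miR-200a-5p they overlap.

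The plot of levels by time shows the spread at the earlier times beside the step to 7d. Over all 444 miRNAs, 7 (1.58%) were higher in every mouse of 7d than in every earlier mouse, and these 7 were members of the cluster or the family, miR-96-5p among them. The count was 7 to 9 when any single mouse was left out. No miRNA (0%) was lower in every mouse of 7d, and leaving out a mouse gave 0 to 3 (1 without FP88, FP81 or FP82, and 3 without FP83).

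Against single times, the members kept a positive log2 difference throughout. Relative to 0h the values ran from 2.11 (miR-200b-3p) to 3.50 (miR-96-5p), relative to 6h from 2.55 (miR-200b-3p) to 3.45 (miR-96-5p), and relative to 24h from 1.90 (miR-200b-3p) to 2.89 (miR-182-5p). limma called 0 of 444 (0%) in each of the 3 comparisons. At an unadjusted p under 0.05 there were 26 miRNAs against 0h, 37 against 6h and 19 against 24h, edgeR called 0 in each, and DESeq2 called 1, 2 and 1. Without FP77 limma called 7 miRNAs against 6h, which were 6 of the members and miR-338-3p, an oligodendrocyte miRNA, and 1 against 0h, miR-96-5p. miR-96-5p was among the 6 too. It passed the filter only with the help of the 7d mice, so its calls are given as a description. Without FP87 of 0h it called miR-200c-3p against 6h. These comparisons share the 7d mice and are not independent of each other.

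Outside the cluster and family, differences were small. Over the 444 miRNAs the median size of the log2 difference between 7d and the earlier times was 0.11, the median SE was 0.17, and for 413 miRNAs (93.0%) the 95% interval of the difference lay within 1 log2 unit of 0. A difference above 1 was measured for 10 miRNAs, the 9 members and miR-3470b, and a difference below -1 for none (0 of 444). miR-3470b, a low-abundance miRNA, measured 1.3, 1.93 and 2.61 at 0h, 11.1, 17.7 and 3.82 at 6h, 1.64, 2 and 3.02 at 24h, and 4.99, 36.6, 8.93 and 23 at 7d. FP82 and FP84 were high at 7d, but FP77 and FP78 at 6h exceeded FP81, so the groups overlapped (log2 difference 1.74 ± 0.46, adjusted p 0.109). DESeq2 called it in this comparison, against 0h, against 24h and in both F tests below, where limma and edgeR did not. FP77 and FP78 were the only earlier mice with a level of 10 or more, short of the 4 libraries of the filter. Thus miR-3470b was tested only because of its level at 7d, and its difference and these calls are given as a description.

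**Figure D2:**
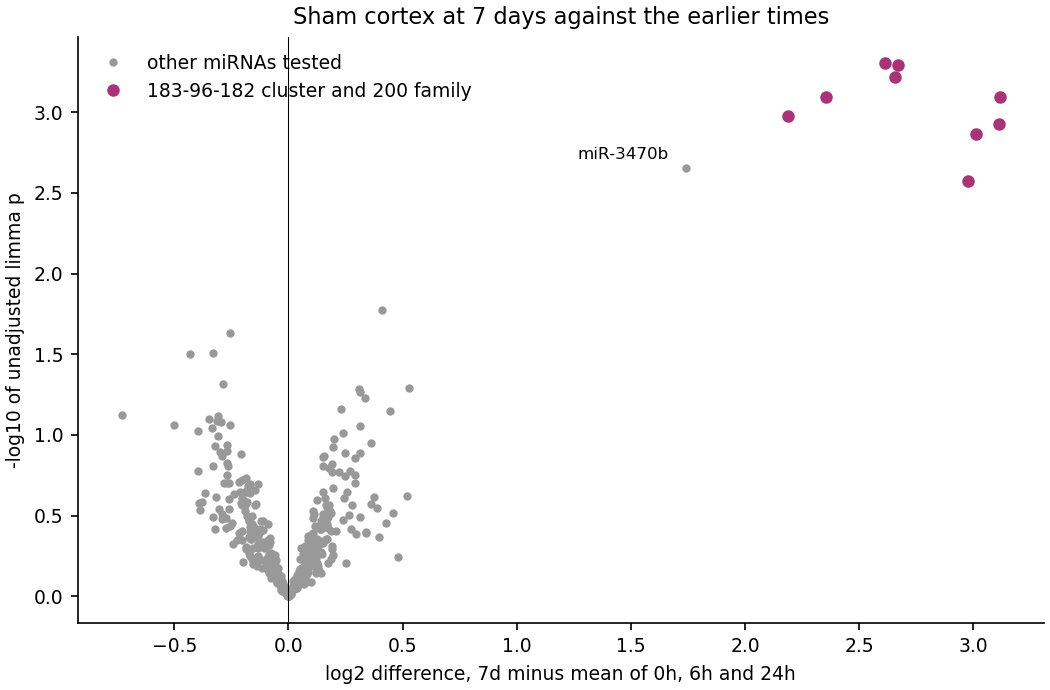
Each of the 444 tested miRNAs by its log2 difference between 7d and the mean of 0h, 6h and 24h in sham cortex (x axis) and -log10 of its unadjusted limma p (y axis); coloured points are the 9 members of the cluster and the family. These lie between 2.19 and 3.12 on the x axis, miR-3470b lies at 1.74, and the other miRNAs lie between -0.73 and 0.53.

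The plot of differences against p shows the 9 members apart from the other miRNAs, with none past the adjusted threshold. The falls with the smallest p did not pass it. miR-434-3p, from the imprinted Dlk1-Dio3 region, measured 35543, 36108, 32435 and 33005 at 7d against 35240 to 50955 in the earlier mice, and the groups overlapped (log2 difference -0.25 ± 0.10, adjusted p 0.862). miR-382-5p, from the same region, stood at 175, 186.2 and 201.7 at 0h, 227.9, 233.2 and 267.2 at 6h, 173.9, 204.1 and 130.4 at 24h, and 169.1, 136.2, 178.3 and 163.1 at 7d. The 6h mice were the high ones, and the log2 difference of 7d was -0.29 ± 0.13 (adjusted p 0.992). The log2 difference was -0.33 ± 0.14 for miR-34b-5p, of multiciliated cells, -0.43 ± 0.18 for miR-3085-3p and -0.73 ± 0.38 for miR-3547-3p, each with an adjusted p of 0.992. miR-324-5p and miR-877-3p, named in the study's account of cortex, had log2 differences of -0.03 and -0.27 (adjusted p 0.992).

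Markers of other cell types were read beside the 2.19 to 3.12 of the cluster and family. In bulk tissue, fewer cells of a type and less of its RNA per cell cannot be told apart. No miRNA of the 444 was called in this comparison (0%), so the absence of calls says nothing about the 16 other lists in particular. Their list medians of the log2 difference lay between -0.25 and 0.42. The 4 tested miRNAs of multiciliated cells were all lower at 7d (median -0.25) and the 4 neuroendocrine ones all higher (median 0.38). miR-375-3p, the best-known of the latter, measured 110, 166.1 and 171.5 at 0h, 212.2, 163.9 and 193.5 at 6h, 142.9, 129.9 and 116.9 at 24h, and 149.1, 139.8, 267.9 and 337.2 at 7d. FP83 and FP84 were high at 7d, and FP81 and FP82 lay within the earlier range (log2 difference 0.44, adjusted p 0.992). All tested members were higher in other lists as well: 5 of smooth muscle and fibroblasts (median 0.13), 2 of muscle (0.42), 2 of liver and gut (0.27) and 2 of the Hox clusters (0.08). Some members counted above lay near 0, such as miR-34c-5p of multiciliated cells (-0.04) and the neuroendocrine miR-7a-1-3p (0.03). The 12 choroid plexus miRNAs, 8 of them tested, summed to 7083 to 11902 at the earlier times and 8248 to 13590 at 7d, with a median log2 difference of 0.00. The 3 squamous epithelial miRNAs summed to 55.9 to 85.4 at the earlier times and 61.6 to 91.9 at 7d. Of these, miR-203-3p measured 66.5, 80.9 and 61.5 at 0h and 83.3, 66.6, 55.9 and 79.9 at 7d, with the groups overlapping, and miR-205-5p was 3.02 to 6.83 in all 13 mice. The part of any tissue or cell type in the difference of the cluster and family was not tested.

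The next comparison asked whether the 4 times differed in any direction. In the F test over the 4 times limma called 0 of 444 (0%), 36 had an unadjusted p under 0.05, edgeR called 0 and DESeq2 called 2. Without FP77 limma called 5 miRNAs, all members of the cluster or family. Among 0h, 6h and 24h alone limma again called 0 of 444 (0%), with 44 miRNAs under an unadjusted p of 0.05, edgeR called 0 and DESeq2 2, and leaving out any single mouse gave 0. The members of the cluster and family had unadjusted p of 0.304 to 0.841 among the earlier times.

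Other miRNAs had the smallest p among the earlier times. miR-467d-5p, of the Sfmbt2 miRNA cluster, measured 19.4, 20.1 and 21.6 at 0h, 9.19, 9.58 and 12 at 6h, 21.5, 22.5 and 16.7 at 24h, and 15.9, 16.7, 19.6 and 14.9 at 7d. The 3 mice of 6h lay below all others (p 0.000232 and adjusted p 0.103 by limma among the earlier times, and adjusted p 0.268 over the 4 times). miR-142a-5p, a leukocyte miRNA, measured 490.1, 561.3 and 413.3 at 0h, 345.9, 266.5 and 199.3 at 6h, 289.1, 320.5 and 355.6 at 24h, and 307.5, 288.9, 271 and 332.8 at 7d. The 3 mice of 0h lay above all others, and the adjusted p was 0.436. For miR-322-5p the values were 225.2, 212.1 and 222.7 at 0h, 54.4, 140.8 and 128.9 at 6h, 216, 195.8 and 206.5 at 24h, and 172.6, 198.2, 134.5 and 193 at 7d, so that FP77 of 6h stood lowest and FP83 of 7d fell between 2 mice of 6h.

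Some miRNAs separated one of the earlier times from all other mice. At 6h, 7 miRNAs (1.58%) lay below every other sham cortex, and 1 (0.225%), miR-382-5p, lay above. The most abundant of the 7 was miR-128-3p, a neuronal miRNA, at 34935, 33216 and 32057 at 6h against 35211 to 45684 in the other 10 mice. miR-199a-3p, of fibroblasts and vessel walls, stood at 168.9, 170.7 and 153.3 at 6h against 191.5 to 256.6 elsewhere. At 0h, 5 miRNAs (1.13%) lay above all other mice, among them miR-142a-5p and miR-181b-1-3p, and 2 (0.45%) lay below, miR-30f and miR-7047-3p. At 24h 1 miRNA (0.225%), miR-6911-3p, lay above and 1 (0.225%), miR-101c, lay below. The 6h libraries were also the shallowest, and the part of depth in these differences was not tested.

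Time accounted for 37.8% of the squared log2 distance between the 13 sham cortices, against a mean of 25.0% over permuted time labels (permutation test, 100000 resamples, p = 0.0301). The result depended on single mice. Without FP87, FP78, FP86, FP81 or FP84 in turn, the permutation p was 0.0673, 0.0781, 0.06, 0.057 and 0.122, and without FP77 the share was 49.0% (p = 0.0017). Pairs of mice from different times were little farther apart than pairs from the same time. The median root-mean-square log2 distance was 0.59 over 63 pairs of different times (0.39 to 1.05) and 0.55 over 15 pairs of the same time (0.28 to 0.85). For 6 of the 13 mice the nearest other mouse was of the same time, and the closest pair of all was FP81 and FP84, both of 7d, at 0.28.

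The other question was which miRNAs varied together between sham mice of the same time. Each log2 value was taken as its deviation from the mean of its time, which removed the differences between times. The median miRNA had a within-time SD of 0.29 log2 units, 90% were below 0.57, and 10 of 444 were above 1. Those 10 were the 9 members of the cluster and family (1.01 for miR-200b-3p to 1.57 for miR-183-5p) and miR-409-5p (1.61). The miRNAs with the largest difference between times were therefore among those with the largest spread between mice of one time. By comparison, the SD was 0.10 for miR-9-5p and 0.16 for miR-181a-5p, 2 of the most abundant miRNAs.

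Between mice of one time, miR-182-5p and miR-200a-3p deviated together. FP87 was lowest in both at 0h, with log2 deviations of -2.60 and -1.55, FP77 was highest in both at 6h (1.67 and 1.81), and FP92 was highest in both at 24h (1.29 and 0.99). At 7d FP82 was lowest in both (-1.08 and -0.79). Over the 13 mice Pearson's r was 0.95 and Spearman's rho 0.95, given as a description since the pair was named with these mice known. Without FP87 and FP77, the mice farthest from the median of miR-182-5p, r was 0.92, and within the 9 mice FP77 to FP88 it was 0.95. In the 48 fentanyl cortices, which were other mice, r was 0.72 and rho 0.74 (1 relation tested, permutation test within groups, p = 4e-05 and 1e-05, the latter the smallest that 100000 resamples can give). Without FP24 r was 0.94 in them. The pair was chosen with earlier results of these data known, so these p-values may not be independent of the choice. FP24, of HNLD at 7d, measured 3048 for miR-182-5p and 6.71 for miR-200a-3p. Its library was the shallowest of the cortex, at 1775669 reads. Its profile correlated with the median cortex profile at 0.9202, against 0.9732 or more in the other cortices in use. The part of the library in its place off the pair was not tested.

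The other members followed the same mice. For the 28 pairs among the 8 members other than miR-200a-5p, r was 0.71 to 0.99 with a median of 0.94. Within the locus on chromosome 4, r was 0.99 for miR-200a-3p with miR-200b-3p and 0.99 with miR-429-3p. Between loci, r was 0.98 for miR-200a-3p with miR-141-3p and 0.97 for miR-182-5p with miR-141-3p. The passenger strand miR-200a-5p, whose counts were low, followed less closely, with r of 0.26 to 0.85 over 8 pairs and 0.62 with miR-200a-3p, the other arm of its precursor. These correlations are a description over mice that share libraries and time means, and over all 98346 pairs of tested miRNAs the median r was -0.00.

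The pattern that took most of the variation between mice was another one. The first axis of the deviations held 38.7% of the variance and the second 22.0%. On the first axis miR-409-5p led, with miR-145a-3p, miR-100-5p and miR-96-5p after it, and FP77 (0.41) and FP83 (0.26) stood at one end and FP86 (-0.35) and FP81 (-0.27) at the other. The second axis was led by miR-183-5p, miR-182-5p and miR-141-3p, and its first 9 miRNAs were the 9 members. Its ends were FP88 (0.20) and FP92 (0.19) against FP87 (-0.30) and FP82 (-0.22). The axes of the 48 fentanyl cortices, computed apart, had loadings that correlated with these across the 444 miRNAs at 0.77 for the first and 0.80 for the second. miRNAs are not independent of each other, and no p is given for these values.

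**Figure D3:**
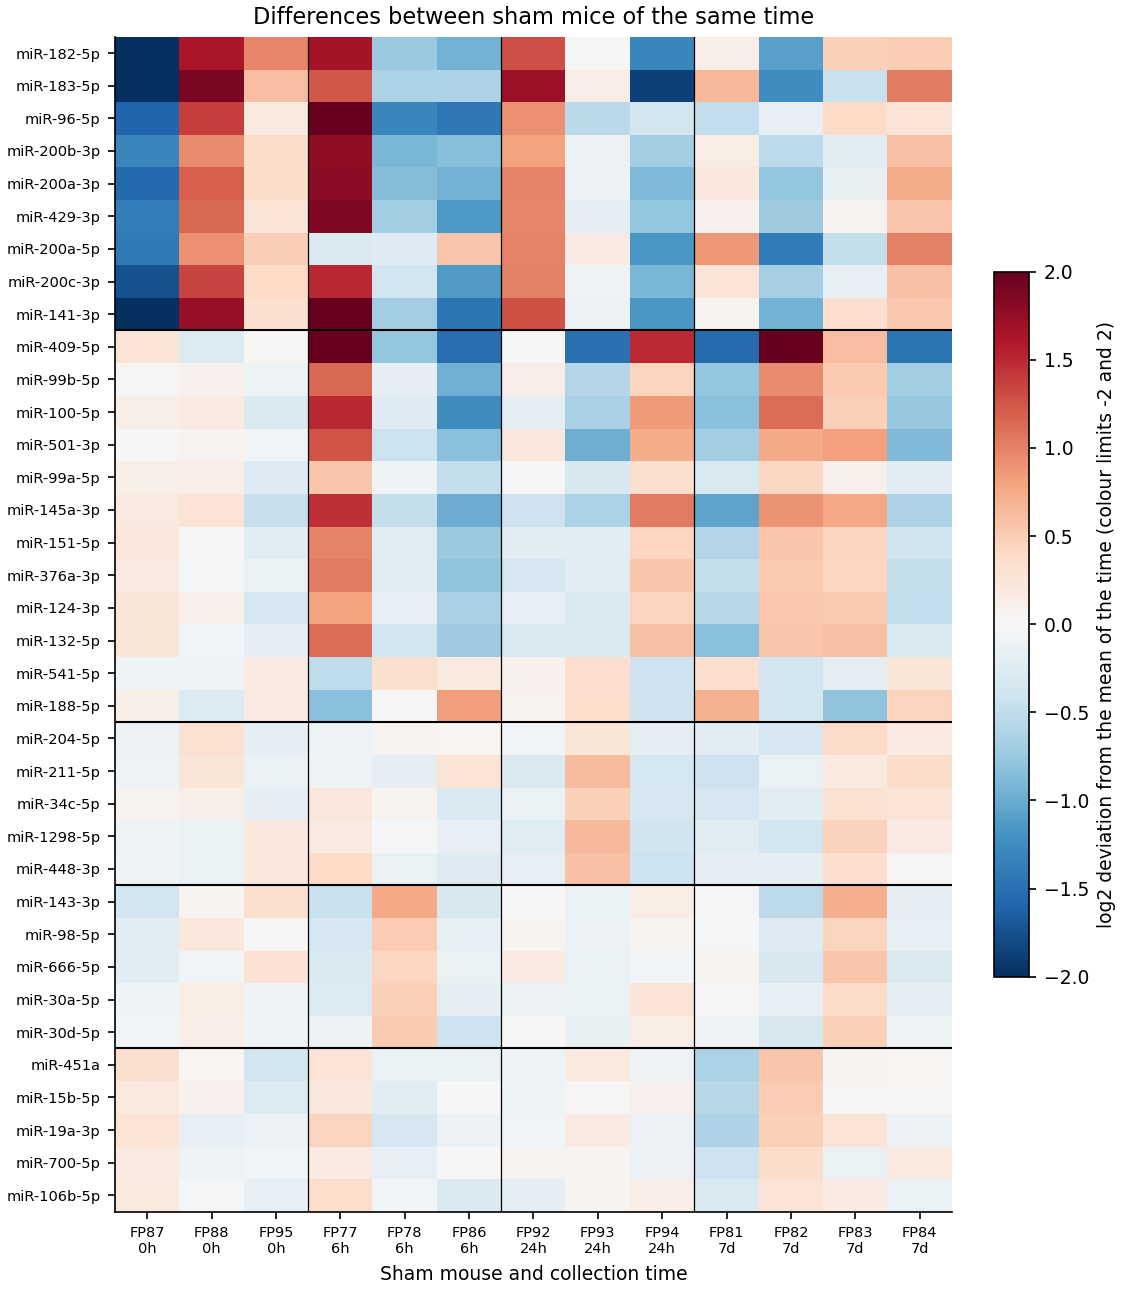
Deviation of each sham cortex (columns) from the mean of its collection time in log2 units (colour, limits -2 and 2) for groups of miRNAs that varied together (rows), in blocks from top to bottom: cluster and family, miRNAs with or opposite to miR-409-5p, choroid plexus and multiciliated cell miRNAs, miRNAs with miR-143-3p, and miRNAs with miR-451a. FP87 is lowest in the first block at 0h and FP77 highest in it at 6h except in miR-200a-5p (-0.29), while FP77, FP94 and FP82 are highest in miR-409-5p of the second block.

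The map of deviations shows that FP77 was the highest mouse of 6h in both miR-182-5p and miR-409-5p, while FP94 and FP82, the highest of 24h and 7d in miR-409-5p (1.49 and 2.39), were the lowest of these times in miR-182-5p (-1.30 and -1.08). miR-409-5p comes from the imprinted Dlk1-Dio3 region. It measured 10.6, 7.06 and 8.85 at 0h, 133.7, 14.9 and 8.51 at 6h, 35.9, 12 and 102.5 at 24h, and 9.26, 155, 44.6 and 9.83 at 7d. FP77, FP94 and FP82 were each the highest of their time, and the mice of 7d held both the highest value of all 13 and values near the lowest. miR-99b-5p had the highest correlation with it, r = 0.97. Its values were 2731, 2850 and 2518 at 0h, 5921, 2324 and 1370 at 6h, 3915, 2364 and 4867 at 24h, and 2170, 7163, 5363 and 2313 at 7d, with FP77, FP94 and FP82 again the highest of their times. miR-100-5p (r = 0.96), of the same family as miR-99b-5p, measured 1089, 1127 and 815.9 at 0h, 2706, 791 and 396.9 at 6h, 1041, 759.5 and 2160 at 24h, and 772.1, 2989, 1902 and 809 at 7d. The next were miR-501-3p (0.95), miR-199a-5p, miR-99a-5p and miR-145a-3p (0.93 each), miR-151-5p and miR-376a-3p (0.92 each), and the neuronal miR-124-3p and miR-132-5p (0.91 each). The strongest opposite correlations were those of miR-541-5p (-0.94) and miR-21a-3p (-0.89). miR-541-5p was 3566 in FP77, 3273 in FP94 and 3063 in FP82, the lowest mouse of 6h, of 24h and of 7d.

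The pairs with miR-409-5p were chosen by their r in sham mice, so they carry no p there, and they were tested in the 48 fentanyl cortices. All 10 positive pairs kept their sign and passed the permutation test, with r of 0.46 to 0.93 and adjusted p of at most 0.00819 over 53 pairs. All 5 opposite pairs did as well, with r of -0.69 to -0.56 and adjusted p of at most 0.00133.

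**Figure D4:**
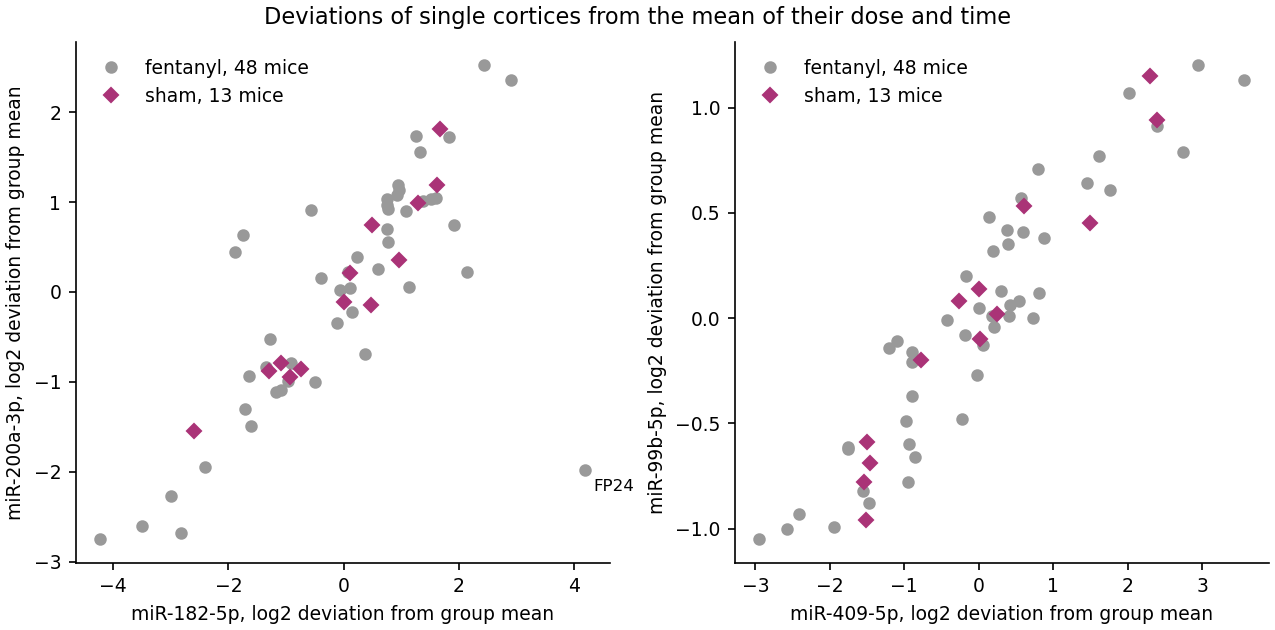
Log2 deviation of single cortices from the mean of their dose and time, for miR-182-5p and miR-200a-3p (left) and for miR-409-5p and miR-99b-5p (right), in 13 sham mice (diamonds) and 48 fentanyl mice (circles). Sham and fentanyl mice lie along the same direction in both panels (r in sham mice 0.95 and 0.97), and FP24 lies off it in the left panel.

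The plot of paired deviations shows sham mice within the spread of the fentanyl mice. The sequences below are shown because several miRNAs with a high r with miR-409-5p hold the letters CCCG, in capitals, as do miRNAs that did not follow it, of which miR-92b-3p and miR-92a-3p are given last.
miR-409-5p: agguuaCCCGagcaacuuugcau
miR-99b-5p: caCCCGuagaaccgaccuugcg
miR-100-5p: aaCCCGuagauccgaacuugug
miR-501-3p: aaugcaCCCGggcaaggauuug
miR-99a-5p: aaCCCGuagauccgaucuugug
miR-346-5p: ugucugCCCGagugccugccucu
miR-92b-3p: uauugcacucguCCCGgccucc
miR-92a-3p: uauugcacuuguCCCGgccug
The letters CCCG were looked for on the strand of the mature miRNA alone, after the correlations had been seen, so no test is given. They occur in 18 of the 391 tested miRNAs with a RefSeq sequence (4.6%). Of the 17 besides miR-409-5p, 12 correlated positively with it and 5 negatively. The r was above 0.5 for 11 of the 17, against 73 of the 373 miRNAs without the letters, and the median r was 0.56 against -0.02. In the fentanyl cortices the medians were 0.50 and -0.04. miR-346-5p (r = 0.87) was among the 11, and so were miR-484 (0.91), miR-873a-3p (0.80) and miR-93-3p (0.78), which hold the letters toward the 3′ end. miR-92b-3p (-0.08) and miR-92a-3p (-0.55) were among the 5. Of the other miRNAs with a high r, miR-199a-5p, miR-376a-3p and miR-132-5p do not hold the letters. A match of letters is a description of these sequences.

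Smaller groups were looked for around other single miRNAs, most of them known from a cell type, and not all of these groups held in the fentanyl cortices. Partners were the 5 miRNAs of highest r with each in sham mice, and were tested in the fentanyl cortices. Around miR-451a, of red blood cells, the partners were miR-15b-5p (r = 0.95), miR-19a-3p, miR-212-3p, miR-700-5p and miR-106b-5p, and 4 of the 5 pairs passed with the same sign in the fentanyl cortices, miR-212-3p being the exception (r = 0.23, permutation test, adjusted p = 0.169). miR-451a measured 995.7, 822.7 and 620.8 at 0h, 843.9, 631 and 629.8 at 6h, 697.4, 857.1 and 698.5 at 24h, and 450.2, 1028, 731.9 and 724.2 at 7d. FP82 was the highest and FP81 the lowest of all 13 mice, both of 7d. The 5 partners were not on the red blood cell list. The 5 miRNAs of that list, miR-451a among them, did not vary together as a set, with a median r of 0.05 over 10 pairs (-0.69 to 0.79). Around miR-143-3p, of smooth muscle, miR-98-5p (r = 0.95), miR-666-5p, miR-30a-5p and miR-30d-5p passed and miR-7068-3p did not. miR-143-3p measured 12204, 16579 and 19850 at 0h, 9885, 22680 and 10783 at 6h, 10885, 9909 and 12124 at 24h, and 14296, 10106, 23898 and 12721 at 7d. FP78 and FP83 stood far above the other mice of their times. The 5 tested miRNAs of the smooth muscle and fibroblast list did not vary together as a set either, with a median r of -0.11 over 10 pairs (-0.7 to 0.88).

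Around miR-34c-5p, of multiciliated cells, 4 of 5 partners passed, and all 4 were choroid plexus miRNAs: miR-1298-5p (r = 0.82), miR-448-3p (0.78), miR-204-5p (0.73) and miR-211-5p (0.70). The partner that did not pass, miR-425-3p, had r of 0.80 in sham mice and -0.31 in the fentanyl cortices (permutation test, adjusted p = 0.0939). Around miR-204-5p itself 2 of 5 partners passed with the same sign, miR-211-5p and miR-34c-5p, miR-425-3p passed with the opposite sign, and miR-1251-5p and miR-134-5p did not pass. miR-204-5p, the most abundant of these, measured 5774, 7795 and 5505 at 0h, 8274, 9243 and 9134 at 6h, 7790, 9489 and 7030 at 24h, and 7324, 6826, 11270 and 9781 at 7d. FP93 was highest at 24h and FP83 at 7d. The r of miR-182-5p was 0.35 with miR-204-5p and 0.29 with miR-34c-5p in sham mice, and -0.15 and -0.23 in the fentanyl cortices. Around miR-10b-5p 0 of 5 pairs passed with the same sign and 2 passed with the opposite one, and around miR-375-3p 1 passed with the same sign, with miR-204-5p, and 2 with the opposite one. One of these 2 was miR-182-5p, with r of 0.63 in sham mice and -0.51 in the fentanyl cortices.

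The difference between 7d and the earlier times in sham mice was then set against the same difference in fentanyl mice. The numbered fentanyl mice were FP16 to FP74 and the sham mice in use FP77 to FP95. Treatment and anything shared by mice of neighbouring numbers therefore cannot be told apart. In HNLD and LD50 cortices the 9 members were lower at 7d than earlier, in LD10 cortices they were higher. For miR-200a-3p the log2 difference was 2.66 in sham, -2.02 in HNLD, 2.02 in LD10 and -1.76 in LD50, and for miR-429-3p it was 2.61, -1.71, 2.09 and -1.86. The highest level of miR-200a-3p at 7d was 55.9 in HNLD, 843.3 in LD10 and 178.9 in LD50, all below the lowest sham mouse of 7d, at 914.8. At the earlier times fentanyl mice reached levels of the sham mice of 7d, with 1348 in an HNLD mouse of 0h and 1441 in an LD50 mouse of 6h.

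**Figure D5:**
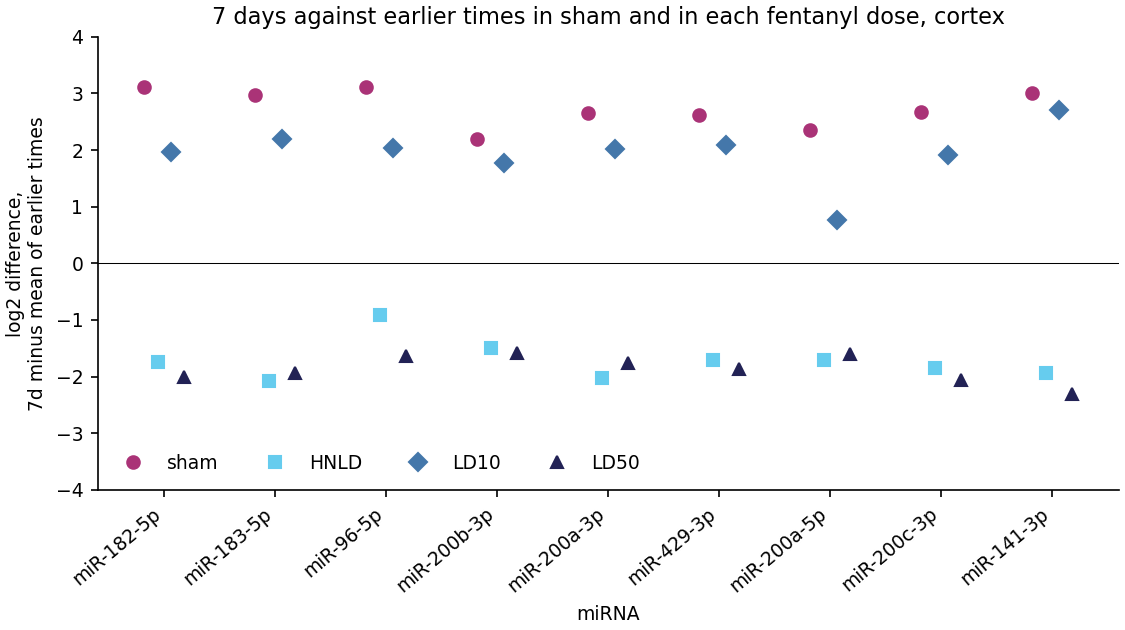
Log2 difference between 7d and the mean of 0h, 6h and 24h in cortex for the 9 members of the cluster and family, in sham mice (circles) and at each fentanyl dose (squares HNLD, diamonds LD10, triangles LD50). Sham and LD10 values are above 0 and HNLD and LD50 values below 0 in each of the 9 miRNAs.

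The plot by dose shows the sign of each difference. In the test of sham against the mean of the 3 doses, over 479 miRNAs, limma called 1 (0.209%), miR-200a-5p, while 13 had an unadjusted p under 0.05, edgeR called 2 and DESeq2 called 6. miR-200a-5p measured 0, 2.94, 1.99 and 0.794 at 7d in HNLD, 18.7, 8.64, 9.95 and 3.87 in LD10, and 0.955, 17.5, 2.01 and 1.5 in LD50, against 78.8, 15.6, 30.5 and 86.9 in sham. The sham mice were the higher ones with an overlap through FP82. The difference of differences was 3.20 ± 0.73 on the log2 scale, with an adjusted p of 0.0289. It was positive for the other 8 members too, at 2.62 (miR-200b-3p) to 3.70 (miR-182-5p), with adjusted p of 0.0875 to 0.404. The single call was lost without any one of FP78, FP81, FP83, FP84, FP87 and FP94 among sham mice and FP24, FP41, FP43 and FP61 among fentanyl mice, each leaving 0 calls. There were 8 calls without FP77, 5 without FP67, 3 without FP64, and 2 without FP30 or FP82.

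miRNAs whose groups did not overlap were also counted between fentanyl mice of 7d and earlier mice of their dose. The same 444 miRNAs were used, which had been filtered on the sham libraries. Of these, 1 (0.225%) lay above and 0 (0%) below in HNLD, 1 (0.225%) above and 1 (0.225%) below in LD10, and 0 (0%) on either side in LD50. The fentanyl groups had 4 mice at each time, against 3 sham mice at each earlier time, so these counts are not on the same footing as the 7 in sham, and the difference between counts was not tested.

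Heart and lungs of the sham mice were read in their own tables, 16 libraries each. The heart of FP91 is labelled as control at 24h, while its column header names LD10, and the label was used. In heart, limma called 0 of 292 miRNAs (0%) at 7d against the earlier times, while 9 had an unadjusted p under 0.05 and neither edgeR (0) nor DESeq2 (0) called any. miR-182-5p was 42.6 to 234.8 at 7d and 13.5 to 314.4 earlier in heart, and miR-200a-3p was 6.16 to 17.6 at 7d and 5.4 to 36.8 earlier. The groups overlapped in both, with log2 differences of 0.68 ± 0.58 and -0.33 ± 0.34 (adjusted p 0.802 each). In lungs, where the 200 family is abundant, 91 of 336 miRNAs had an unadjusted p under 0.05, edgeR called 17, DESeq2 called 58, and limma called 2 (0.595%), miR-92b-3p (0.57 ± 0.11, adjusted p 0.026) and miR-1298-5p (0.65 ± 0.13, adjusted p 0.026), and neither differed in cortex by more than 0.10 log2 units (adjusted p 0.992). Within the lungs of FP77 to FP88 limma called 0. Depth differed between times in sham lungs, with 500457 to 3863362 reads at 0h and 549004 to 4830677 at 6h. It was 642444 to 815001 at 24h and 1231688 to 6206571 at 7d. Sham hearts held 245799 to 3091425 reads at 24h and 2940662 to 3960548 at 7d. The part of depth in the heart and lung results was not tested. miR-1298-5p was 237.9 to 386.8 in lungs of 0h, 432 to 531.9 at 6h, 225.3 to 293.2 at 24h and 438 to 542.9 at 7d, so that 6h and 7d overlapped and 0h and 24h lay below both. The lung count was 0 without FP78, FP81, FP83, FP84, FP91, FP92 or FP93, 1 without FP82, 4 without FP95, 50 without FP87 and 60 without FP88.

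In lungs the level of miR-200a-3p split by mouse number. It was 1534 to 2027 in the 10 mice FP77 to FP88, which hold the 7d mice, and 7948 to 10230 in the 6 mice FP91 to FP96, which hold the 24h mice, while miR-429-3p was 2015 to 2488 and 1311 to 1914. In cortex, miR-200a-3p in FP92, FP93, FP94 and FP95 measured 635.3, 296, 172.6 and 312.7, within the range of 82.8 to 2640 of the 9 mice FP77 to FP88. In the cortex of these 9 mice limma called 0 miRNAs at 7d against the earlier times.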

How the data were processed

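Small RNA from cortex, heart and lungs was sequenced on a NextSeq 500, and reads were checked with FastQC and aligned with Bowtie 1.0.0 to the mm9 entries of miRBase, per the study's methods and the submitters' processing notes. For each tissue the authors deposited 1 table of normalised signal, reads scaled to library size with edgeR's TMM, and not of counts. All low values checked (100%, up to 2000 reads) were whole reads within 0.1 read, and TMM factors computed from the recovered reads differed from those of the cortex table by at most 7.7e-09%. No column was left unmapped (0). Intervals and floors of 3 reads cover counting error only. Groups came from the sample labels.

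limma 3.58.1 (R 4.3.3, mean trend) was fitted to log2(value + 1) over miRNAs that reached 10 in 4 or more libraries of the fit, with Benjamini-Hochberg adjustment and a threshold of 0.05. Fold changes on this scale understate those of low miRNAs. edgeR 4.0.16 and DESeq2 1.42.0 were run on recovered reads as alternatives, beside other pseudocounts (0.25 and 4), filters, scaling (RLE), robust moderation, library weights, all 15 sham libraries, a fit over all doses, mice FP77 to FP88 alone, and each mouse left out. The limma step was tested on simulated data. Permutation tests drew 100000 resamples (10000 for alternatives) and were two-sided for correlations and one-sided for the share of variance, with Python 3.11.15 and scipy 1.17.1.

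The members and the marker lists were chosen with earlier results of these data known. Named miRNAs were the members of the cluster and family, up to 10 rises and falls past the threshold or the 5 of smallest p where fewer than 5 passed, the 10 smallest p of the F tests, the 2 most abundant of each other list, 2 miRNAs named by the study, the 10 of largest within-time SD, and the 5 closest partners of 8 miRNAs; miR-409-5p's partners and the miRNAs that separated a time were added after their values were seen. RefSeq gave sequences for 391 of the 444 tested miRNAs (GRCm38.p6), and positions are those of the mm9 annotation. FP85 and FP96 were left out of the cortex, and the mRNA arrays were not analysed here.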

Additional observations from a re-analysis of the deposited data

Results flagged for a closer look

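The difference of miR-200a-5p between 7d and the earlier times differed between sham and fentanyl cortices by 3.20 log2 units in the interaction term of limma (adjusted p 0.0289). Under the alternatives it was 2.49 to 3.75, with adjusted p of 0.00044 to 0.541, and it lost the threshold with a pseudocount of 0.25, with no filter, with FP85 and FP96 included and without FP24.

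At 7d, miR-467a-5p was 27.9 in FP82 against 16.4, 17 and 16 in the other 3 mice, a gap that is large for the range of the group. This was 1 of 92 miRNAs looked at in the group of 4 mice, where chance flags about 1 in 20, and groups of 3 mice were not examined in this way.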

How the results depend on the processing

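Counts of called miRNAs in sham cortex stayed at 0 in most alternatives. Exceptions for 7d against the earlier times were 6 by DESeq2 and 9 with library weights, and 0 to 9 when 1 mouse was left out. Exceptions against 0h were 1 by DESeq2 and 5 with library weights (0 to 1 by leaving out a mouse), against 6h 2 and 5 (0 to 7), and against 24h 1 by DESeq2 and 1 with no filter, miR-3470a (0 to 0). The F tests gave 2 by DESeq2, over the 4 times (0 to 5 by leaving out a mouse) and over the earlier times (0 to 0). The share of variance by time was 15.0% with all 15 sham libraries (permutation p = 0.633), 40.2% in mice FP77 to FP88 (permutation p = 0.0526) and 35.6% to 49.0% without single mice, with 37.8%, 37.1%, 37.6%, 38.6% and 35.6% where p passed 0.05 (without FP87, FP78, FP86, FP81 and FP84). With all 15 libraries the log2 differences of miR-434-3p, miR-3085-3p and miR-382-5p turned to 0.81, 0.52 and 0.64. The count for sham against fentanyl was 0 with a pseudocount of 0.25, with no filter, with FP85 and FP96, and without FP24, 2 with a pseudocount of 4 and by edgeR, 6 by DESeq2 and 10 with library weights (0 to 8 by leaving out a mouse, 10 of 61 giving 0). In lungs it was 11 with a pseudocount of 4, 0 with no filter and in FP77 to FP88, 18 with RLE scaling, 17 by edgeR, 58 by DESeq2, 15 with robust moderation and 100 with library weights (0 to 60, with 50 without FP87). The family of tests was larger where no filter was used, and the cause of these changes was not tested. The count of miRNAs above every earlier mouse was 7 to 9 and below 0 to 3. No paired analysis was possible because the replicate numbers only follow accession order. With 3 or 4 mice a time and a median SE of 0.17 log2 units, small differences could not be detected. Low values rest on few reads, as 3 reads were worth 1.15 in the shallowest sham cortex in use, FP77, and 0.4353 in the deepest, FP95.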

Other observations

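miR-194-5p, a miRNA of liver and gut that cortex also holds, was 23.4 in FP77 of 6h and 149.8 to 258.3 in the other 12 sham cortices. miR-7a-5p, a neuroendocrine miRNA, was 417.4 in FP83 of 7d and 67 to 181.2 in the others. miR-3547-3p was 79.9 in FP86 of 6h and 12 to 46 in the others. These 3 were picked after their values were seen and were not tested.

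miR-124-3p, a defining miRNA of neurons, varied between mice of one time. It measured 7513, 6779 and 5015 at 0h, 6900, 3547 and 2526 at 6h, 4436, 4074 and 6778 at 24h, and 3568, 7641, 7552 and 3706 at 7d, so that its range within 6h was nearly that of all 13 mice. Its within-time SD was 0.55 log2 units, against 0.10 for miR-9-5p, 0.11 for miR-128-3p, 0.49 for miR-138-5p and at most 0.62 in the neuronal list, and its deviations followed miR-409-5p (r = 0.91 over 13 mice, a description). The log2 difference of 7d was 0.07 ± 0.29 (adjusted p 0.992).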
